A study of Mus musculus with 27 samples.

Results

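The genes of the neuromuscular junction and of the muscle acetylcholine receptor were followed in single mouse myofibers: the receptor subunits Chrna1, Chrnb1, Chrnd, Chrne and Chrng, and the junction genes Musk, Rapsn, Dok7, Lrp4 and Ncam1. They were found as the array probes that carried one of the 10 gene symbols, out of 35527 gene names on the array, and had 15 of its 55681 probes, at least 1 for each gene. The series held 27 arrays, each hybridised with amplified RNA of 1 fiber of the tibialis anterior, a fast hindlimb muscle. Of the fibers, 8 came from 2 WT mice, 12 from 3 Smn1deltaSKM mice and 7 from 2 Smn1deltaSKM+AFS mice. These numbers follow the labels, and the study's own text gives others for the Smn1deltaSKM+AFS group and for the arrays in all. All mice were male, and the labels gave an age of 3 months for each.

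Smn1deltaSKM mice carry Smn F7/F7, floxed alleles of the survival motor neuron gene, and HSA-Cre, in which the human alpha-skeletal actin promoter drives Cre, so that Smn1 is deleted in skeletal muscle fibers and not in motor neurons. Smn1deltaSKM+AFS mice had the same alleles and had received GFP+ c-kit+ amniotic fluid stem (AFS) cells through the tail vein. The methods placed the injection at 3 months and the collection of muscle a month later, so the age of this group against the labels was not settled. The WT mice were described as littermates in one place and as GFP+ C57BL/6 mice in another. Because several fibers came from each mouse, the mouse was the replicate in the main tests. Some alternative settings took fibers as replicates and are named as such.

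At the junction the motor nerve releases acetylcholine, which opens a receptor built of alpha, beta, delta and, in adult muscle, epsilon subunits. Before birth and after loss of the nerve, a gamma subunit takes the place of epsilon and the receptor is made along the whole fiber. Nerve-derived agrin binds LRP4, which activates the kinase MuSK; MuSK needs its adaptor DOK7, and rapsyn ties the receptor into clusters beneath the nerve. The few nuclei under the junction transcribe these genes strongly, and how much of the junctional region each isolated fiber retained was not given in the sources used here. Fewer such nuclei in a fiber and less RNA per nucleus cannot be told apart in these arrays.

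Levels are log2 of the scanner's processed signal minus the 75th percentile of the same array, so that 0 is the brightness of that percentile. They compare one probe between fibers and never 2 probes with each other. A spot had a value where it was found, was well above background and was no outlier. Between 23170 and 37580 probes had a value in a fiber, with a median of 25147.5 in WT, 31411 in Smn1deltaSKM and 27412 in Smn1deltaSKM+AFS fibers. All WT arrays were on 1 slide that was scanned on a day of its own, so slide and scan day cannot be told apart from genotype in any comparison with WT.

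The targeted gene was read by 2 probes. For the probe A_55_P2048848 the Smn1 level was 0.60, 1.97 and 2.37 (lowest, median and highest fiber) in WT, -1.42, 0.34 and 0.66 in Smn1deltaSKM, and -1.05, 0.14 and 1.32 in Smn1deltaSKM+AFS fibers. Smn1deltaSKM mice were lower than WT by a log2 difference of -1.69 (SE 0.365, limma adjusted p = 0.0192), and the call was lost under another scaling (-1.36, adjusted p = 0.0557). The second Smn1 probe, A_55_P2048560, differed by 0.18 (adjusted p = 0.733). Whether either probe lies in the deleted part of the gene was not determined, so neither one checks the labels fully.

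Probes are shown for 2 receptor subunits and for Ncam1, whose values are described below. Sequences are the array's own, 5' to 3' on the transcript strand. In mouse build mm9, the Chrng probe A_51_P288010 spans chr1:89106072-89106353 on the plus strand, the Chrnb1 probe A_51_P475342 spans chr11:69598674-69599242 on the minus strand and the Ncam1 probe A_55_P2028942 lies at chr9:49351182-49351241. The Chrng and Chrnb1 probes have 60 bases and cover 282 and 569 bases of the genome, so each crosses at least 1 intron.
Chrng A_51_P288010: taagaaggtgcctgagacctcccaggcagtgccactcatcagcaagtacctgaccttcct
Chrnb1 A_51_P475342: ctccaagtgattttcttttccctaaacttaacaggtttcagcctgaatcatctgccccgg
Ncam1 A_55_P2028942: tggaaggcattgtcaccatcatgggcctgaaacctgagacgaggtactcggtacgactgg

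Promoters are shown for the adult and the embryonic subunit, Chrne and Chrng, since these are the pair that exchange in the receptor. The 200 bases before the RefSeq start in build GRCm38.p6 were chr11:70619195-70619394 on the minus strand for Chrne and chr1:87205611-87205810 on the plus strand for Chrng. Capitals mark an N-box (CCGGAA, an element that binds GABP in synaptic nuclei) and E-box cores (CAGCTG, bound by myogenic factors), which do not overlap each other here.
Chrne promoter: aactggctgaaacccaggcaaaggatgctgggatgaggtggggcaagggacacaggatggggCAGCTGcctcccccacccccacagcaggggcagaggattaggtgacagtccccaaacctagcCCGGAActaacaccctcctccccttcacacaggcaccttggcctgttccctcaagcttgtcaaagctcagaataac
Chrng promoter: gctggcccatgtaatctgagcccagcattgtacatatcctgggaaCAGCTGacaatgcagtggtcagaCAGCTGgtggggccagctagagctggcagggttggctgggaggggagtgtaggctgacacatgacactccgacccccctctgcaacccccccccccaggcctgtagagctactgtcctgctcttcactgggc
Both strands of 300 bases around each start were searched. Of the 6 member genes with a promoter in the RefSeq table, 1 held the N-box (Chrne) and 4 held the E-box core (Chrne, Chrng, Chrna1 and Musk). Among all 32851 promoters of the table, 14.9% held the N-box and 16.3% the E-box core.

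Between Smn1deltaSKM and WT, the adult epsilon subunit fell, and no other member passed the test. Of the 15 probes, 8 had values on at least 75% of the arrays and were tested, 1 for each of 8 genes; Chrnd and Lrp4 had no probe that passed. Of these 8, 1 was called lower and 0 higher at a limma adjusted p under 0.05, while 22% of all 22154 probes tested were called (14.6% lower and 7.38% higher). At an unadjusted p under 0.05, 3 of the 8 passed, against 39.3% of all probes. The members' share of calls was therefore not above the background. Their median log2 difference was -0.64, with 5 of 8 below 0, and the median of all probes tested was -0.15, with 12406 of 22154 below 0.

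Chrne encodes the epsilon subunit of the adult receptor, made by the nuclei under the junction. Its level was -0.39, 0.31 and 1.18 (lowest, median and highest fiber) in WT, -3.94, -1.09 and -0.63 in Smn1deltaSKM, and -1.10, -0.50 and 0.63 in Smn1deltaSKM+AFS fibers. The lowest Smn1deltaSKM fiber was not well above background, so its value is only a bound. All 12 Smn1deltaSKM fibers lay below all 8 WT fibers, a separation in that direction seen for 6.77% of all probes tested (3.48% in the other direction), and the Smn1deltaSKM+AFS fibers overlapped both groups. Over mice the mean was 0.28 ± 0.29 (SD, n = 2) in WT, -1.23 ± 0.42 (n = 3) in Smn1deltaSKM and -0.38 ± 0.50 (n = 2) in Smn1deltaSKM+AFS. The fall of 2.85-fold (log2 difference -1.51, SE 0.356, 95% interval -2.33 to -0.70, limma adjusted p = 0.0239) was -1.36 relative to the median of all probes. The call was lost when arrays were scaled on the probes with values on all of them (-1.19, limma adjusted p = 0.0750, and again -1.36 relative to the median of all). It was also lost without WT mouse 1 (-1.31, adjusted p = 0.196), WT mouse 2 (-1.71, adjusted p = 0.0928) or Smn1deltaSKM mouse 3 (-1.51, adjusted p = 0.0604). With another background correction, normexp, the difference was -0.995 and was called (adjusted p = 0.0264).

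**Figure D1:**
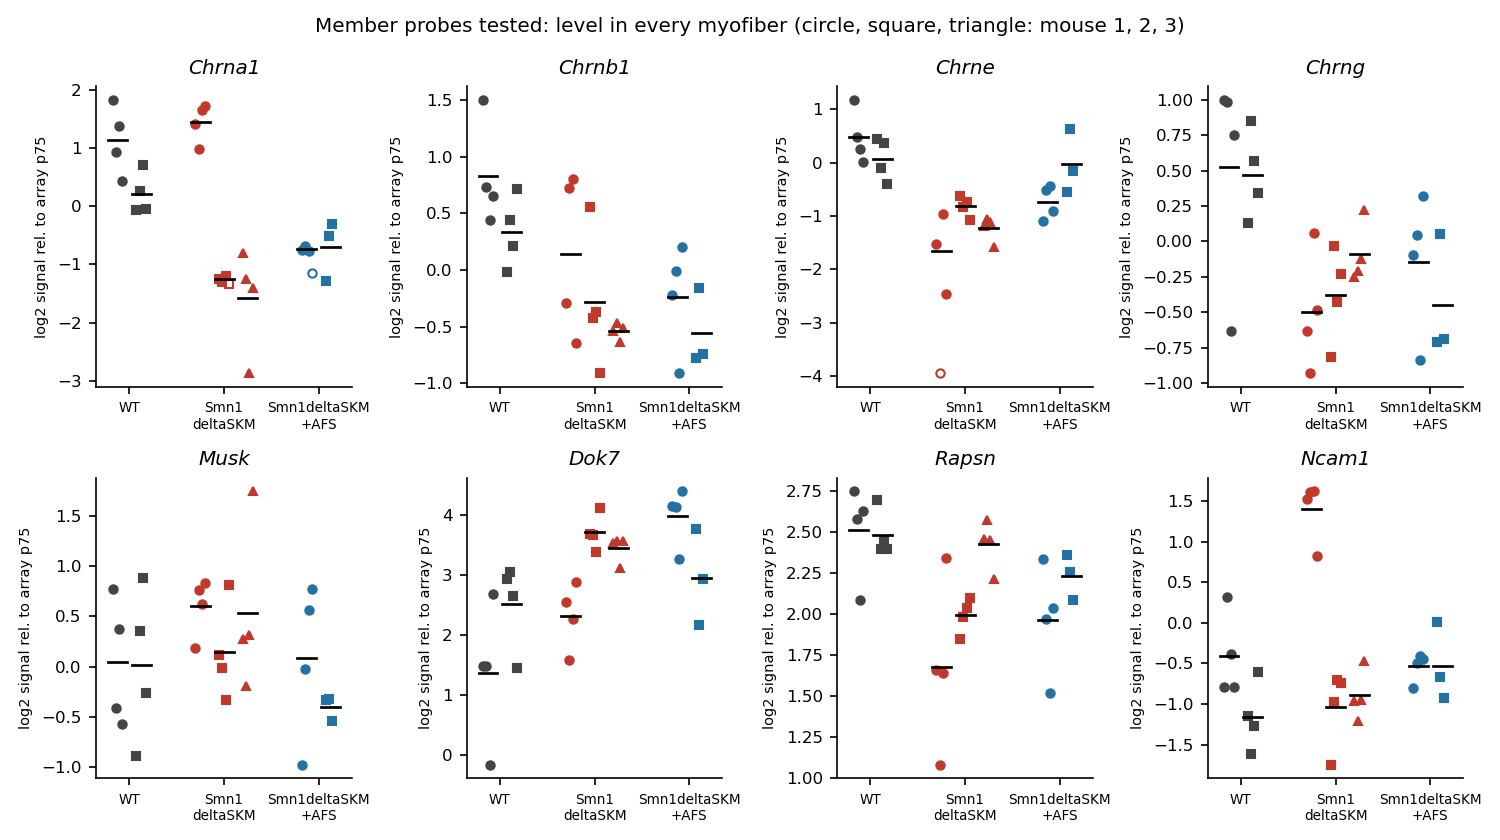
Level of the 8 tested member probes in each fiber by group, as log2 signal minus the 75th percentile of the array; circles, squares and triangles are mouse 1, 2 and 3, open symbols had no value, and bars are mouse means. All 12 Smn1deltaSKM fibers lay below the 8 WT fibers for Chrne, and Smn1deltaSKM mouse 1 stood apart for Chrna1, Ncam1 and Dok7.

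Chrng encodes the gamma subunit of the embryonic receptor. Its level was -0.63, 0.66 and 1.00 in WT, -0.93, -0.24 and 0.22 in Smn1deltaSKM, and -0.83, -0.10 and 0.32 in Smn1deltaSKM+AFS fibers (lowest, median and highest). The mouse means were 0.53 and 0.47 in WT and between -0.50 and -0.09 in Smn1deltaSKM, so that the mice separated although single fibers overlapped. The log2 difference was -0.82 (SE 0.268, 95% interval -1.43 to -0.21) and did not pass the adjusted threshold (limma adjusted p = 0.0596). It passed narrowly when only the 13128 probes with values on all arrays were tested (adjusted p = 0.0487), and was -0.36 (adjusted p = 0.174) after normexp background correction and quantile normalization. The embryonic subunit was thus no higher in Smn1deltaSKM than in WT fibers in any of the 3 Smn1deltaSKM mice.

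Chrnb1, the beta subunit present in both forms of the receptor, had levels of -0.02, 0.55 and 1.501 in WT, -0.91, -0.45 and 0.80 in Smn1deltaSKM, and -0.91, -0.22 and 0.20 in Smn1deltaSKM+AFS fibers. The groups overlapped among fibers, while the mouse means of 0.83 and 0.34 in WT were above those of 0.14, -0.29 and -0.54 in Smn1deltaSKM. The log2 difference of -0.81 (SE 0.316, limma adjusted p = 0.0956) was not called.

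Chrna1, the alpha subunit that binds acetylcholine, was read by the probe A_52_P533707 at chr2:73404112-73404171. Its level was -0.07, 0.57 and 1.83 in WT, -2.87, -1.22 and 1.72 in Smn1deltaSKM, and -1.29, -0.75 and -0.30 in Smn1deltaSKM+AFS fibers. The Smn1deltaSKM fibers split by mouse: the mean was 1.44 in mouse 1, -1.25 in mouse 2 and -1.58 in mouse 3. With that spread (SD 1.66, n = 3), the log2 difference from WT of -1.14 had an SE of 0.806 and was not called (limma adjusted p = 0.324). The second Chrna1 probe had a value in 4 of 8 WT, 8 of 12 Smn1deltaSKM and 6 of 7 Smn1deltaSKM+AFS fibers and was not tested. With no filter, its measured signal went the other way. It differed from WT by 0.22 in Smn1deltaSKM (SE 0.564, limma adjusted p = 0.804) and by 0.83 in Smn1deltaSKM+AFS (SE 0.618, adjusted p = 0.445). The Chrna1 levels below are those of A_52_P533707 alone.

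Chrnd, the delta subunit, was dim in every group, with a value in 5 of 8 WT, 7 of 12 Smn1deltaSKM and 5 of 7 Smn1deltaSKM+AFS fibers. Its measured level was -3.54, -2.31 and -1.98 in WT, -4.31, -2.85 and -0.62 in Smn1deltaSKM, and -3.25, -2.38 and -1.71 in Smn1deltaSKM+AFS fibers, and the groups overlapped. With no filter on values, the difference between Smn1deltaSKM and WT was -0.47 (limma adjusted p = 0.463).

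The genes of the clustering pathway did not move together. Dok7, the adaptor that activates MuSK, had levels of -0.16, 2.07 and 3.05 in WT, 1.58, 3.46 and 4.11 in Smn1deltaSKM, and 2.16, 3.77 and 4.40 in Smn1deltaSKM+AFS fibers with the probe A_51_P155458. The Smn1deltaSKM mice were above WT by 1.21 (SE 0.535, 95% interval -0.01 to 2.44), which was not called (limma adjusted p = 0.130). Unlike the receptor subunits above, Dok7 was thus the tested member with the highest difference upwards, 1.36 relative to the median of all probes. The second Dok7 probe, dim and not tested, had a value in 4 of 8, 7 of 12 and 3 of 7 fibers, and its measured signal differed by -0.23 between Smn1deltaSKM and WT (SE 0.565), so no direction can be read from it. The brighter Dok7 probe was designed on a cDNA clone, and its place within the gene was not determined.

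Musk, the receptor tyrosine kinase of the pathway, had levels of -0.89, 0.04 and 0.88 in WT, -0.33, 0.29 and 1.75 in Smn1deltaSKM, and -0.97, -0.33 and 0.78 in Smn1deltaSKM+AFS fibers. These ranges overlapped, and the log2 difference between Smn1deltaSKM and WT was 0.40 (SE 0.287, limma adjusted p = 0.333). Rapsn, which encodes rapsyn, had levels of 2.09, 2.51 and 2.75 in WT, 1.08, 2.07 and 2.58 in Smn1deltaSKM, and 1.52, 2.09 and 2.36 in Smn1deltaSKM+AFS fibers. Its difference of -0.46 (SE 0.300) was not called either (limma adjusted p = 0.281).

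Lrp4, the agrin receptor, had a value in 7 of 8 WT fibers but in 6 of 12 Smn1deltaSKM and 4 of 7 Smn1deltaSKM+AFS fibers, and so was not tested. Its measured level was -2.64, 0.08 and 1.28 in WT, -3.09, -1.90 and -0.28 in Smn1deltaSKM, and -2.60, -1.61 and -0.30 in Smn1deltaSKM+AFS fibers. The medians of both Smn1deltaSKM groups lay below that of WT, and the ranges overlapped. With no filter and the measured signal kept, Smn1deltaSKM was lower than WT by -1.70 (SE 0.395, limma adjusted p = 0.0247), a call the main test could not make. The difference between Smn1deltaSKM+AFS and WT was -1.32 and was not called (adjusted p = 0.104).

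Ncam1, a cell adhesion molecule of the junction that spreads over the fiber after loss of the nerve, was read by 3 probes. The brightest, A_55_P2028942, had levels of -1.61, -0.79 and 0.31 in WT, -1.75, -0.72 and 1.62 in Smn1deltaSKM, and -0.93, -0.49 and 0.01 in Smn1deltaSKM+AFS fibers, and differed by 0.61 (SE 0.677, limma adjusted p = 0.535). The probe A_55_P2050602 at chr9:49323381-49323440 had a value in 3 of 8 WT fibers and in 0 of 12 Smn1deltaSKM and 0 of 7 Smn1deltaSKM+AFS fibers. With signals below background kept and no filter, this probe was called lower in Smn1deltaSKM (limma adjusted p = 0.0163), a value that rests mostly on fibers without a usable signal, while the third, A_51_P380309, with a value in 3 of 8, 6 of 12 and 1 of 7 fibers, differed by 0.34 (adjusted p = 0.550). No direction for Ncam1 as a whole can be read from its 3 probes.

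**Figure D2:**
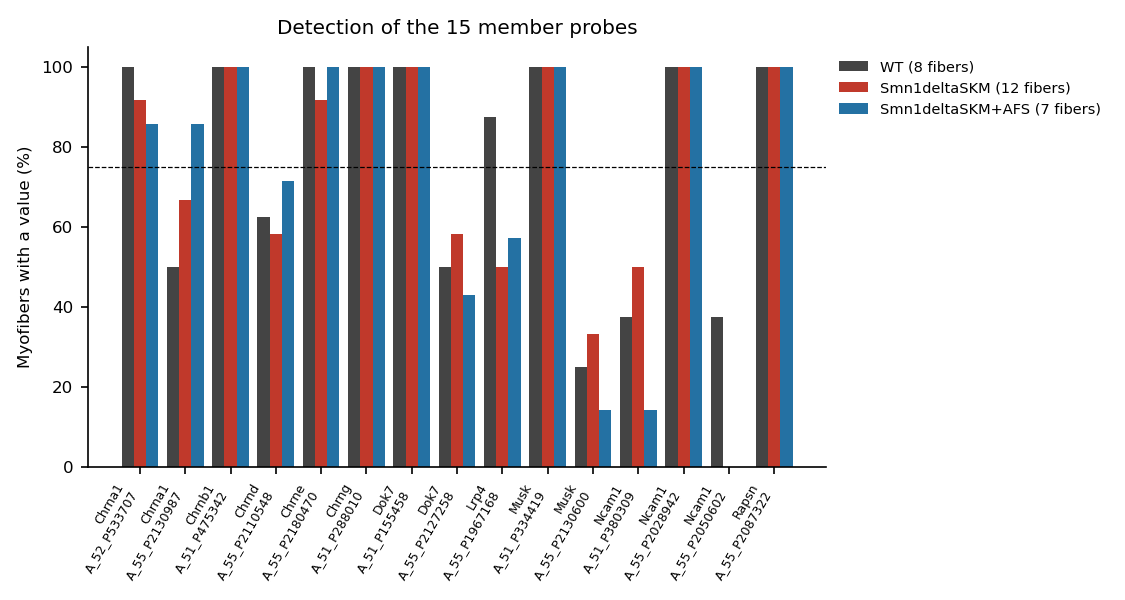
Percent of fibers with a value for each of the 15 member probes in the 3 groups; the dashed line marks 75%, the share of all arrays a probe needed to be tested. Chrnb1, Chrng, Rapsn and the brightest probes of Dok7, Musk and Ncam1 had a value in every fiber, and Ncam1 A_55_P2050602 in WT fibers only.

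After transplantation of AFS cells, no member differed from Smn1deltaSKM at the adjusted threshold, and 0% of all probes tested did. With fibers as replicates and no term for the mouse, 357 of all probes were called with scan day as a random block (322 higher and 35 lower). With independent fibers 41 were called, and no member was among the calls in either setting. At an unadjusted p under 0.05, 1 of 8 members passed by limma, Chrne, against 3.32% of all probes tested. Chrne was higher in Smn1deltaSKM+AFS than in Smn1deltaSKM mice by a log2 difference of 0.85 (SE 0.356, 95% interval 0.04 to 1.66), with a limma adjusted p of 0.9999. Its mean in Smn1deltaSKM+AFS, -0.38, lay between those of Smn1deltaSKM and WT. Where a scan day held both groups, the Chrne difference was 0.77 on day 1, with 1 mouse of each group and no test, and 0.99 on day 2. The day 2 difference was not called, and Smn1deltaSKM mouse 1 had a single fiber there. Without that mouse the difference over both days was 0.64 (limma adjusted p = 0.535).

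The other 7 tested members differed between Smn1deltaSKM+AFS and Smn1deltaSKM by between -0.58 (Musk, 95% interval -1.24 to 0.07) and 0.31 (Dok7, -0.91 to 1.54). Chrng differed by 0.03 (-0.59 to 0.64), Rapsn by 0.07 (-0.62 to 0.76) and Chrnb1 by -0.17 (-0.89 to 0.55), and each interval held differences in both directions. For Chrna1 (-0.25, -2.10 to 1.59) and Ncam1 (-0.35, -1.90 to 1.20) the intervals were wider still. No member had all Smn1deltaSKM+AFS fibers above or all below the Smn1deltaSKM fibers, against 0.131% and 0.00451% of all probes tested.

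Against WT, the same mice that served as control for Smn1deltaSKM, Smn1deltaSKM+AFS fibers gave 0 of 8 members called by limma, against 7.38% of all probes tested (3.03% higher and 4.36% lower). At an unadjusted p under 0.05, 3 of 8 passed, Chrnb1, Chrng and Dok7, against 29.5% of all probes. The log2 differences were -0.98 for Chrnb1 (adjusted p = 0.108), -0.79 for Chrng (adjusted p = 0.121) and 1.52 for Dok7 (adjusted p = 0.130). For the tested Chrna1 probe all 7 Smn1deltaSKM+AFS fibers lay below all 8 WT fibers, as for 6.78% of all probes tested (6.61% in the other direction), with a difference of -1.39 (SE 0.883, adjusted p = 0.325). The untested Chrna1 probe was at 0.83 (SE 0.618) with no filter. Chrne was lower than WT by -0.66 (adjusted p = 0.291).

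**Figure D3:**
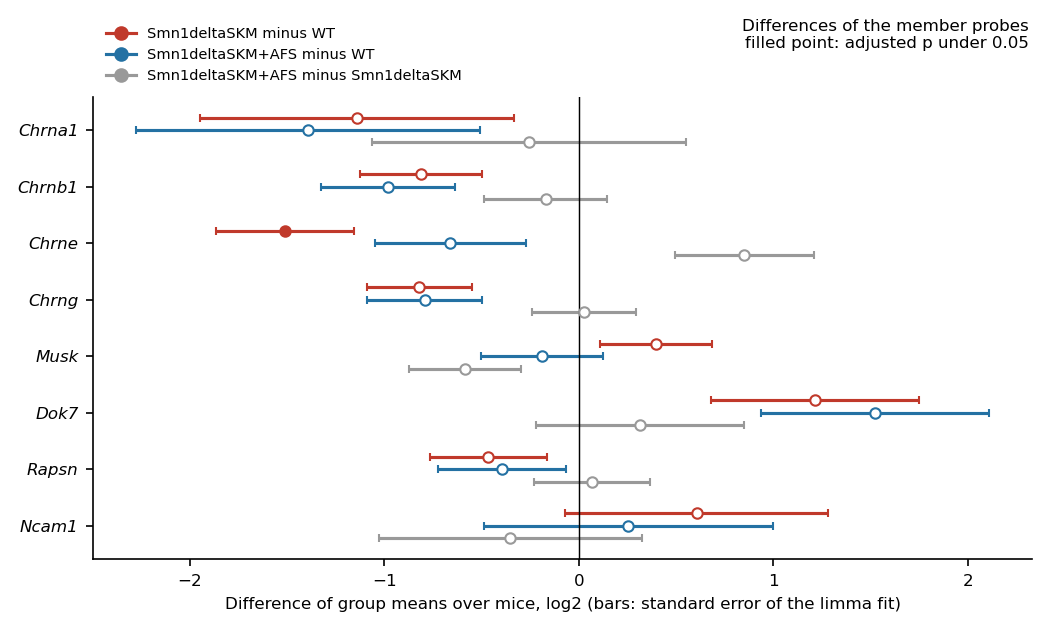
Log2 differences of the 8 tested members in the 3 comparisons between groups, with bars of 1 SE over mice; filled symbols passed a limma adjusted p of 0.05. The only filled symbol is Chrne between Smn1deltaSKM and WT, at -1.51.

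One Smn1deltaSKM mouse stood apart from the other 2 in Chrna1, Ncam1 and Dok7. For Dok7 the SD over mice was nonetheless much the same in each group: 0.81 in WT, 0.74 in Smn1deltaSKM and 0.73 in Smn1deltaSKM+AFS. In the 4 fibers of Smn1deltaSKM mouse 1 the Chrna1 level was 1.41, 0.98, 1.66 and 1.72, while the 8 fibers of mice 2 and 3 lay between -2.87 and -0.80. For Ncam1 the fibers of mouse 1 lay between 0.82 and 1.62 and those of the other 2 mice between -1.75 and -0.47. Dok7 went the opposite way, with 1.58 to 2.88 in mouse 1 and 3.12 to 4.11 in the others. Over all probes tested, 9.88% had mouse 1 wholly above and 15.9% wholly below mice 2 and 3, so this mouse differed in many genes besides these. Between WT mouse 1 and mouse 2 these shares were 3.23% above and 1.11% below, and no member was among them. Fibers 1 to 3 of Smn1deltaSKM mouse 1 were on slide 1, scanned on day 1, and its fiber 4 on slide 3, scanned on day 2. All fibers of mice 2 and 3 were on slide 4, scanned on day 2. In Chrna1, Ncam1 and Dok7, fiber 4 lay on the same side of mice 2 and 3 as fibers 1 to 3. No fiber of mouse 1 shared a slide with mice 2 and 3, so slide and mouse cannot be told apart here. The part of slide in the difference was not tested.

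Without Smn1deltaSKM mouse 1, the comparison of Smn1deltaSKM with WT called 5 members rather than 1. Chrna1 was then lower by -2.09 (limma adjusted p = 0.00381), Chrnb1 by -0.996 (adjusted p = 0.0204), Chrng by -0.73 (adjusted p = 0.0397) and Chrne by -1.30 (adjusted p = 0.0141), and Dok7 was higher by 1.63 (adjusted p = 0.0218). The number of probes called among all tested rose as well, from 4875 to 9786. In the same setting, Ncam1 turned to -0.18. Without the arrays scanned on day 1, a setting chosen after seeing the data, 2 members were called, Chrne and Chrnb1, and 6641 of all 22154 probes.

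**Figure D4:**
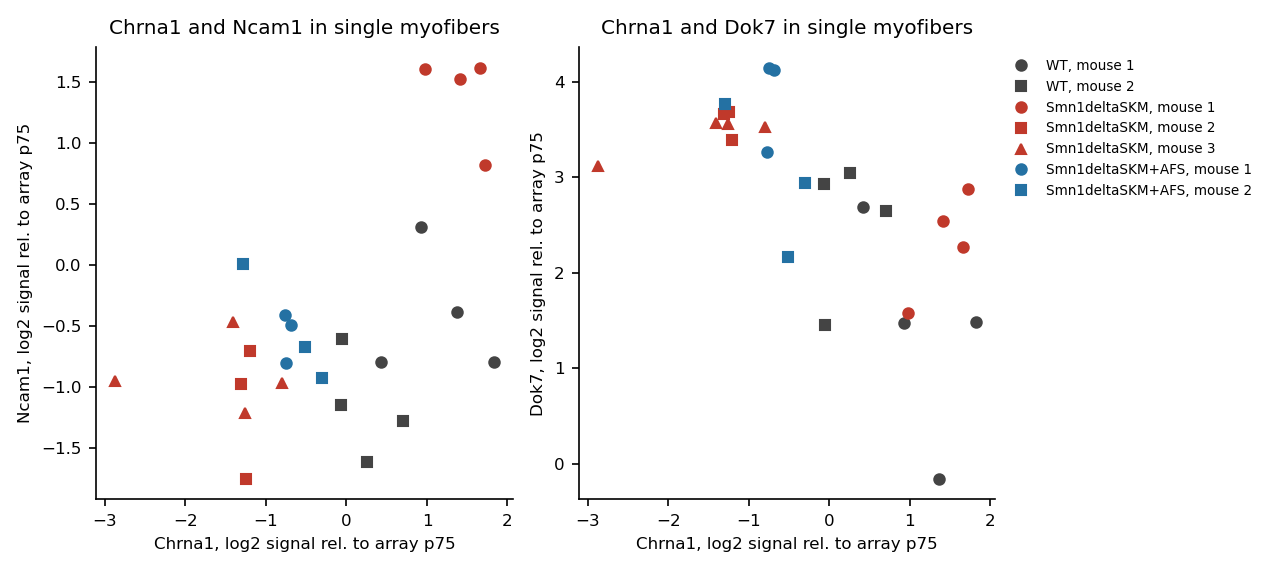
Chrna1 level against Ncam1 level (left) and Dok7 level (right) in each fiber, in log2 units relative to the array's 75th percentile, by group and mouse. The fibers of Smn1deltaSKM mouse 1 lie apart, at Chrna1 levels of 0.98 to 1.72 with Ncam1 levels of 0.82 to 1.62.

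Across fibers, with each group's mean subtracted, Pearson's r was 0.77 between Chrna1 and Ncam1 (25 fibers with both values), -0.54 between Chrna1 and Dok7 and -0.59 between Dok7 and Ncam1. With each mouse's mean subtracted, these values were -0.28, -0.09 and -0.23. The relation of Chrna1 with Ncam1 was thus one between mice and was not seen among the fibers of a mouse. Some other pairs kept their r over 27 fibers. With group means and then mouse means subtracted, r was 0.46 and 0.61 for Dok7 and Rapsn. It was 0.45 and 0.45 for Chrng and Rapsn, 0.43 and 0.46 for Chrng and Dok7, and 0.27 and 0.45 for Chrnb1 and Chrne (26 fibers). The remaining pairs are not given. Fibers share their mouse, slide and array-wide signal, so these values are descriptions.

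The genes whose pattern over fibers was most like each member were sought among the 13128 probes with values on all arrays. For Chrna1 they were Cdkn1c (r 0.89), Cyb5, now Cyb5a (0.89), and Dis3 (0.88), and for Ncam1 they were Anp32b (0.90), Fam32a (0.89) and Arl2bp (0.87). All 6 of these had Smn1deltaSKM mouse 1 wholly above the other 2 mice. Chrne was most like Eml2 (0.73), Qprt (0.72) and Sumf2 (0.71), none of which set mouse 1 apart. The closest to Chrnb1 were 6430548M08Rik (0.73), Met (0.68) and Mfsd5 (0.66), to Dok7 B230312A22Rik, now Fam214b (0.80), Per1 (0.79) and Gm10318 (0.78), and to Rapsn Gipc1 (0.88), Gm5088 (0.85) and Pltp (0.84). Musk was closest to Capg (0.66), C1ql2 (0.64) and an unnamed transcript, and Chrng to Rpl28-ps3 (0.77) and 2 unnamed probes.

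Beyond the members, 44 other genes of the junction and its signalling were followed, of which 35 had a tested probe. Of their 46 tested probes, 14 fell and 2 rose in Smn1deltaSKM against WT, with a median log2 difference of -0.34, while 14.6% of all probes tested were called lower and 7.38% higher. Under the scaling on probes with values on all arrays, 6 were called lower and 2 higher, with a median of -0.01, where 1198 of all 22154 probes were called lower and 2411 higher, so the number of falls depended on the scaling. No probe was called between Smn1deltaSKM+AFS and Smn1deltaSKM, and 3 were lower and 1 higher in Smn1deltaSKM+AFS than in WT.

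The leading fall was in Dag1, which encodes dystroglycan, a laminin and agrin receptor of the fiber surface: its mean was 5.36 in WT, 2.94 in Smn1deltaSKM and 3.47 in Smn1deltaSKM+AFS mice. It was lower by -2.43 in Smn1deltaSKM (limma adjusted p = 0.00672) and by -1.89 in Smn1deltaSKM+AFS (adjusted p = 0.0186) than in WT. Other genes of this list were called lower too. In the membrane scaffold these were Dtna, for alpha-dystrobrevin (-1.49, adjusted p = 0.0166), and Lamb2, for the synaptic laminin beta chain (-1.59, adjusted p = 0.0282). In MuSK signalling they were the partner Dnaja3 (-1.95, adjusted p = 0.0110), the kinase Abl1 (-1.77, adjusted p = 0.0321) and Csnk2b of casein kinase II (-1.55, adjusted p = 0.00971). The cytoskeletal linker Macf1 fell by 1.37 on the log2 scale (adjusted p = 0.0216).

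For several genes of this list the probes disagreed. One probe of Cdc42 and one of Rac1, small GTPases downstream of MuSK, fell (-1.74 and -1.49), while the other probe of each differed by -0.05 and -0.25 and was not called. Prkar1a, a regulatory subunit of protein kinase A, had one probe that rose by 2.09 (adjusted p = 0.0110) and another at -0.39 that was not called. Syne1, which anchors synaptic nuclei, had one probe lower and one higher (-1.15 and 1.09). For Ache, the acetylcholinesterase of the junction, one probe fell (-1.36, adjusted p = 0.0231) and the other was at -1.13 (adjusted p = 0.0713). Agrn was at 0.40 (adjusted p = 0.453), both Colq probes at 0.15 and 0.39, and Utrn at 0.59, none of them called.

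Of the subunits of neuronal nicotinic receptors, 2 of 11 probes were tested. Chrna10 fell by 1.14 on the log2 scale in Smn1deltaSKM (SE 0.319, limma adjusted p = 0.0383), a call lost under the other scaling (-0.82, adjusted p = 0.158), and Chrna2 was at -0.47.

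A further list held 27 genes that respond to denervation or to muscle activity or that control the receptor genes, with 32 tested probes of 22 genes. Of these, 8 were called lower and 2 higher in Smn1deltaSKM than in WT, with a median of 0.10, and 5 lower and 4 higher under the other scaling. Over all 22154 probes these calls numbered 3240 lower and 1635 higher, and 1198 lower and 2411 higher under the other scaling. Myog, a myogenic factor that binds receptor promoters after denervation, was at 0.45 and was not called (limma adjusted p = 0.518). Fbxo32, an atrophy-linked ubiquitin ligase, was lower in Smn1deltaSKM (-1.64, adjusted p = 0.0164) and in Smn1deltaSKM+AFS (-1.77, adjusted p = 0.0340). Trim63 of the same list pointed the other way in Smn1deltaSKM and was not called. Its probes were at 0.83 (95% interval -0.17 to 1.83) and 1.51 (-0.29 to 3.32). The deacetylase gene Hdac4 was lower by -1.94 (adjusted p = 0.00726), and one probe of Camk2a, for a calcium-dependent kinase, by -2.41 (adjusted p = 0.00672). Rises were seen for Ankrd1, a stretch-responsive titin-binding protein (3.28, adjusted p = 0.0141), and for one probe of Hdac6 (1.76, adjusted p = 0.0142). Genes of this list therefore moved in both directions. Of the 28 probes of Smn1 and the other lists called here between Smn1deltaSKM and WT, 15 kept their call under the other scaling and 13 did not.

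**Figure D5:**
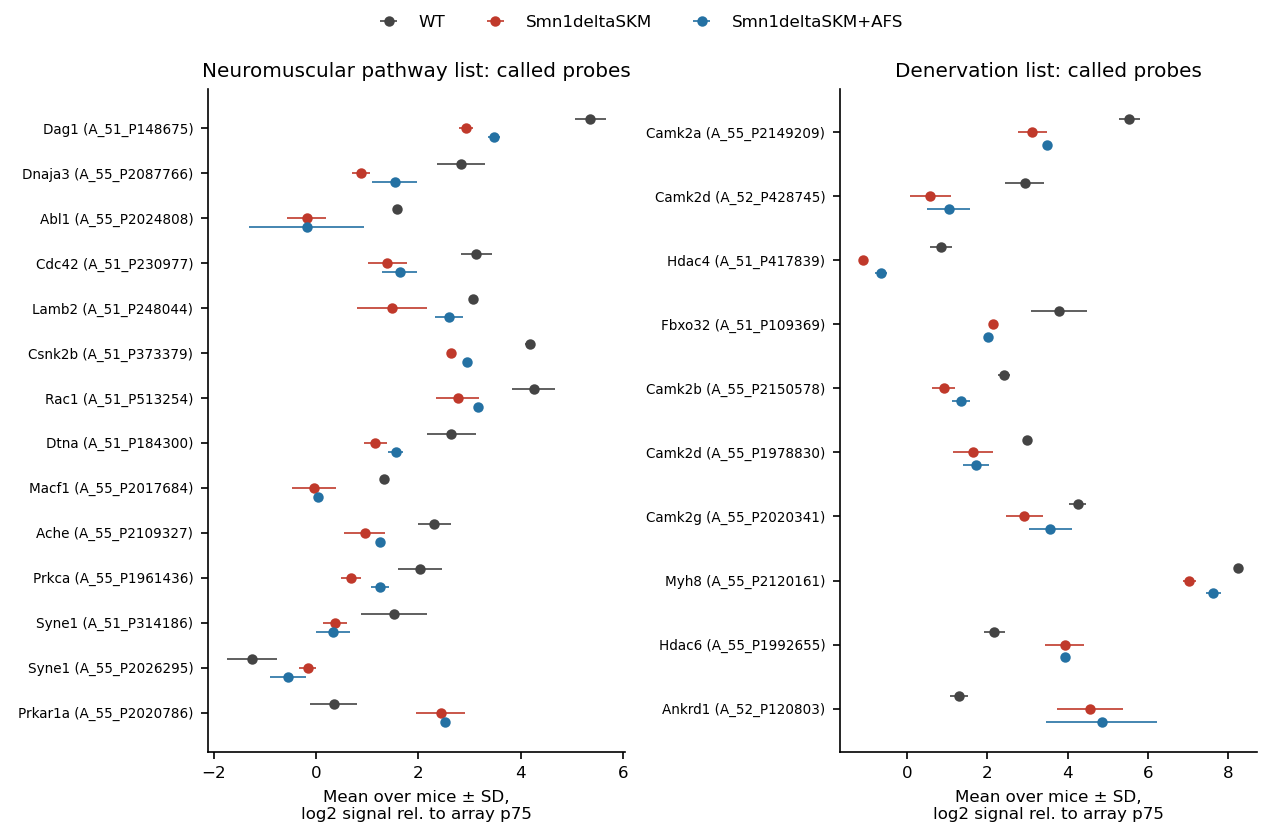
Mean level over mice, with SD, of the probes of the junction pathway list and of the denervation list that were called between Smn1deltaSKM and WT, 1 gene left out, in WT, Smn1deltaSKM and Smn1deltaSKM+AFS mice, in log2 units relative to the array's 75th percentile. Dag1 runs from 5.36 in WT to 2.94 in Smn1deltaSKM and 3.47 in Smn1deltaSKM+AFS.

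One gene of the denervation list, Runx1, could not be tested because too few WT fibers had a value, and it is named here after its values were seen. The probe A_55_P2183438 was well above background in 0 of 8 WT, 12 of 12 Smn1deltaSKM and 7 of 7 Smn1deltaSKM+AFS fibers. The share of all probes with such a split was not counted. WT fibers had fewer probes with a value, a median of 25147.5 against 31411 and 27412. In means over mice, Smn1deltaSKM was at least 10.4-fold and Smn1deltaSKM+AFS at least 10.74-fold brighter than WT. The bound took the dimmest signal well above background on each WT array. Single fibers varied: the lowest was at -2.08 in Smn1deltaSKM and -3.04 in Smn1deltaSKM+AFS, and the highest WT fiber was at -2.97. A second probe had a value in 1 of 8, 12 of 12 and 5 of 7 fibers, with measured means of -3.77, -0.97 and -1.70. Its lowest Smn1deltaSKM+AFS fiber, at -4.36, lay within the WT range of -4.54 to -2.62. Runx1 encodes a transcription factor that rises in denervated muscle, and why it was brighter here was not tested.

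The fibers carried the markers of muscle, and markers of other cells were looked for beside the members. The summed signal of the 10 myofiber markers, in multiples of the array's 75th percentile, was 1966 to 3325 in WT, 1427 to 2417 in Smn1deltaSKM and 2121 to 2968 in Smn1deltaSKM+AFS fibers. That of 6 Schwann cell markers was 1.88 to 4.99, 2.70 to 7.42 and 2.69 to 7.71. The 5 markers of the motor nerve terminal summed to 25.7 to 254 in WT, 153 to 227 in Smn1deltaSKM and 174 to 275 in Smn1deltaSKM+AFS fibers, and the 6 satellite cell markers to 0.763 to 2.58, 1.71 to 26.7 and 2.34 to 5.49, with Myf5 and Calcr at no value anywhere. Fibroblast markers summed to 0.322 to 61.3, 0.511 to 20.3 and 0.389 to 16.5, endothelial markers to 5.33 to 19.0, 9.80 to 19.3 and 12.4 to 34.4, and leukocyte markers to 200 to 316, 192 to 261 and 232 to 316. Their medians were 0.647, 5.25 and 8.07 for fibroblast, 11.1, 13.6 and 13.7 for endothelial, and 257, 236 and 273 for leukocyte markers. The highest WT fibroblast sum was in mouse 2, whose median was 0.649. Of the markers of these other cells, Sdc4, Ptprc and 1 probe of Cd68 were called higher in Smn1deltaSKM than in WT. These were 1 of 2 tested satellite cell and 2 of 7 tested leukocyte probes, against 7.38% of all probes called higher. Differences below 0 were found for 1 of the 2 and 3 of the 7. The tested Schwann cell, nerve terminal, fibroblast and endothelial probes gave no call. In Smn1deltaSKM mouse 1 the Schwann cell sum was 3.82 to 7.42 and the satellite cell sum 2.05 to 26.7, against 2.70 to 4.58 and 1.71 to 3.07 in mice 2 and 3. The medians in mice 1, 2 and 3 were 5.37, 3.23 and 3.55 for Schwann cell and 3.28, 2.38 and 2.30 for satellite cell markers. The part of these cells in the levels of the members was not tested.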

How the data were processed

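Arrays were Agilent 1-colour mouse arrays of single myofibers, whose RNA was amplified by PCR before labelling, so levels carry amplification error. The authors deposited Feature Extraction (10.7.3.1, per the labels) output for each array, in which the processed signal is a background-corrected fluorescence intensity, and a value table of intensity used here only as an alternative. Spots of a probe were averaged, log2 was taken, each array's 75th percentile was subtracted, and values that were not found, not well above background or outliers were left out. No pseudocount was used. Probes measured on 75% or more of the 27 arrays (22154 of 55681) were tested with limma 3.58.1 in R 4.3.3 on means over the fibers of each mouse, 7 mice in 3 groups in one fit, with Benjamini-Hochberg adjustment over all tested probes and a threshold of 0.05. The number of mice limits the precision. The test was also tried on simulated data that took their spread from the real arrays. Scaling, background correction, filter, replicate unit, batch block, mouse number and the mice left out were varied. Bounds used the dimmest signal well above background. The text names all members, some of the called genes of the other lists (at most 12 a list), Agrn, Ache, Colq, Utrn, Myog, Trim63 and Smn1, tested nicotinic subunits, and the 3 genes most like each member. Some called genes are not named, also where their difference was larger than that of a named gene. Members and lists were chosen with earlier results of these data known. Of 189 probes of the lists, 177 matched RefSeq by accession, 2 with another symbol. Some items are not reported here.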

Additional observations from a re-analysis of the deposited data

How the results depend on the processing

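The number of tested members called between Smn1deltaSKM and WT was 1 of 8, with 4875 of all 22154 probes called. It became 0 with the 75th percentile over probes with values on all arrays. With the authors' value table it was 2 of 9 (Chrne, Lrp4), with 4019 of all 25594 probes called. With no filter it was 3 of 15 (Chrne, Lrp4, Ncam1), with 7130 of all 55681 probes called. With fibers as replicates it was 2 with mouse as a random block (Chrne, Chrng) and 5 with independent fibers. It was 2 without the arrays of scan day 1, with 6641 of all probes called. It stayed 1 with probes with values on all arrays only (3195 of 13128 called), where the member called was Chrng and Chrne was not tested. On leaving out each Smn1deltaSKM mouse it was 0 to 5 (5 without mouse 1). Between Smn1deltaSKM+AFS and Smn1deltaSKM, all probes gave 736 at an unadjusted limma p under 0.05. In all settings but those named next, the adjusted calls over all probes were 0. With fibers as replicates and no term for the mouse, they were 357 with scan day as a random block (322 higher) and 41 with independent fibers. Slide as a random block also took fibers as replicates with no term for the mouse. The number of tested members called in this comparison was 0 in all settings run. Between Smn1deltaSKM+AFS and WT it was 0, and became 1 with mouse as a random block (Dok7), 5 with independent fibers, 1 with only both groups in the fit (Chrna1), and 0 to 4 on leaving out each mouse (4 without Smn1deltaSKM mouse 1), while the calls over all probes went from 1636 to 4751, 9146, 4468 and 6491 in these 4 settings. Of 24 member differences, the replicate block by mouse number changed 0 calls; the Chrne difference between Smn1deltaSKM and WT was -1.51 (limma adjusted p = 0.0461), and the calls over all probes went from 4875 to 3148 and, for Smn1deltaSKM+AFS against WT, from 1636 to 1249. Same-numbered mice correlated between -0.05 and 0.30 in their deviations, so the numbers were not taken as pairs. Scaling moved the balance of all calls between Smn1deltaSKM and WT: 66.5% were lower, but 33.2% with the percentile over probes on all arrays (3609 calls, median shift 0.18), 45.0% with their median, 55.2% with the measured signal kept and 59.0% with quantile normalization; for Smn1deltaSKM+AFS against WT 59.0% became 37.7%. All calls between Smn1deltaSKM and WT numbered 8014 with mouse as a random block, 11977 with independent fibers, 2626 with slide as a random block, 9786 without Smn1deltaSKM mouse 1, 1945 without mouse 2, 2194 without mouse 3, and 0 without either WT mouse. Between Smn1deltaSKM+AFS and Smn1deltaSKM, Chrnb1 became 0.21 within scan day 2 and without the arrays of day 1; Chrng became -0.11 and -0.073 with the percentile and the median over probes on all arrays; and Rapsn became -0.073 and -0.031 with these, -0.020 with quantile normalization, -0.032 with the authors' table and -0.041 within day 2 and without day 1. On leaving out each mouse, the ranges there were -0.81 to 0.70 for Chrna1, -0.33 to 0.015 for Chrnb1, -0.13 to 0.18 for Chrng, -0.20 to 0.83 for Dok7, -0.78 to 0.44 for Ncam1 and -0.11 to 0.26 for Rapsn. Against WT, Musk in Smn1deltaSKM+AFS became 0.0019 with the percentile over probes on all arrays and ranged from -0.43 to 0.054, Ncam1 in Smn1deltaSKM+AFS ranged from -0.12 to 0.63, and Ncam1 in Smn1deltaSKM from -0.18 to 1.04. The r of Chrna1 and Ncam1 became -0.28 with mouse means subtracted. The causes were not tested. The setting without scan day 1 was chosen after seeing the data. Signal near background limits Chrnd, Lrp4 and the dimmer probes of Chrna1, Dok7, Musk and Ncam1.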
